A study of Mus musculus with 8 samples.

Results

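The trophectoderm (TE) transcription factors considered here were Cdx2, Gata2, Gata3, Tcfap2a, Tcfap2c, Elf5, Hand1, Ets2 and Elf3. They were chosen by name, as symbols of the GENCODE annotation of the NCBIM37 mouse genome, and they make up 9 of the 37620 genes in the files. Expression is given as CPM, the counts of a gene scaled to a common total of gene counts per library. RNA-seq had been performed on 8 libraries of mouse cells from 5 groups to examine how embryonic stem cells (mESCs) respond to combinations of signals.

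All groups but 1 came from R1, a mESC line that had been kept without feeder cells. The mESC cultures were in serum-containing medium to which small molecules and a cytokine were added. The pair CHIR99021, which inhibits GSK3, and PD0325901, which inhibits MEK, is called 2i. With a JAK inhibitor added it is called 2iJ, and with BMP4 and an inhibitor of the receptor kinase ALK5 added to that it is called 2iJ+B-A. All 6 mESC libraries therefore carry 2i. Their labels name no LIF, a cytokine used to maintain mESCs. For its RNA-seq the paper lists 2i-L, its name for 2i without LIF, beside 2iJ. There was 1 library of 2i and 1 of 2iJ, both from day 5, and 3 of 2iJ+B-A, from days 2, 5 and 11. A further library came from another line, labelled CDX2-GFP for its fluorescent reporter. Its fluorescent cells, called the sorted cells, had been isolated on day 2 in 2iJ+B-A. The remaining 2 libraries were mesoderm progenitors of R1 from days 3 and 4, made from embryoid bodies in another medium with BMP4, Activin A and Wnt3a. Per the study's methods, IWP-2, which blocks secretion of Wnt proteins, was added on day 3 for the day 4 cells.

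The TE is the outer epithelium of the blastocyst and the source of the placental trophoblast. In the embryo the Hippo pathway restricts the coactivator YAP to outer cells, where it acts with TEAD4 to switch on Cdx2. CDX2, the GATA factors GATA2 and GATA3, the AP-2 factors and ELF5 then hold trophoblast stem cells in their state, and HAND1 acts later, when trophoblast differentiates into giant cells. Several of these factors also work elsewhere. CDX2 patterns the posterior body axis, GATA2 serves blood progenitors, and HAND1 serves lateral mesoderm and heart.

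Total gene counts were between 19810855 and 31453888. The sorted library was the smallest and stood apart, with 29.7% of its read pairs unmapped against 2.17% to 3.85% elsewhere, and 27.84% of its uniquely aligned pairs outside annotated exons against 7.83% to 13.21%. The labels fitted their defining markers in part. Pou5f1 was between 865.5 and 1075 CPM in the 6 mESC libraries, but also at 701.3 CPM in the day 3 mesoderm, with Nanog at 152.6 CPM. On day 4 of mesoderm Pou5f1 and Nanog were at 35.4 and 9.72 CPM. The streak marker T was at 547.3 CPM in the day 3 mesoderm but at 6.30 CPM on day 4, when Kdr was at 305.4 CPM. The days of a group served as its replicates, so p-values measure only the spread between these libraries. In bulk samples, fewer cells of a type and less RNA per cell cannot be told apart.

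All 9 genes passed the filter of at least 10 counts in at least 2 libraries, which kept 16961 genes. Together they held 280.6 CPM in 2i and 284.6 CPM in 2iJ. In 2iJ+B-A they held 553.3, 709.2 and 446.2 CPM on days 2, 5 and 11, and in the sorted cells 1516 CPM. The mesoderm progenitors held 182.1 CPM on day 3 and 639.2 CPM on day 4. Hand1 alone made up most of that last sum, since the other 8 genes held 99.2 CPM there. The plot of CPM by library shows that the 9 genes followed different courses.

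**Figure D1:**
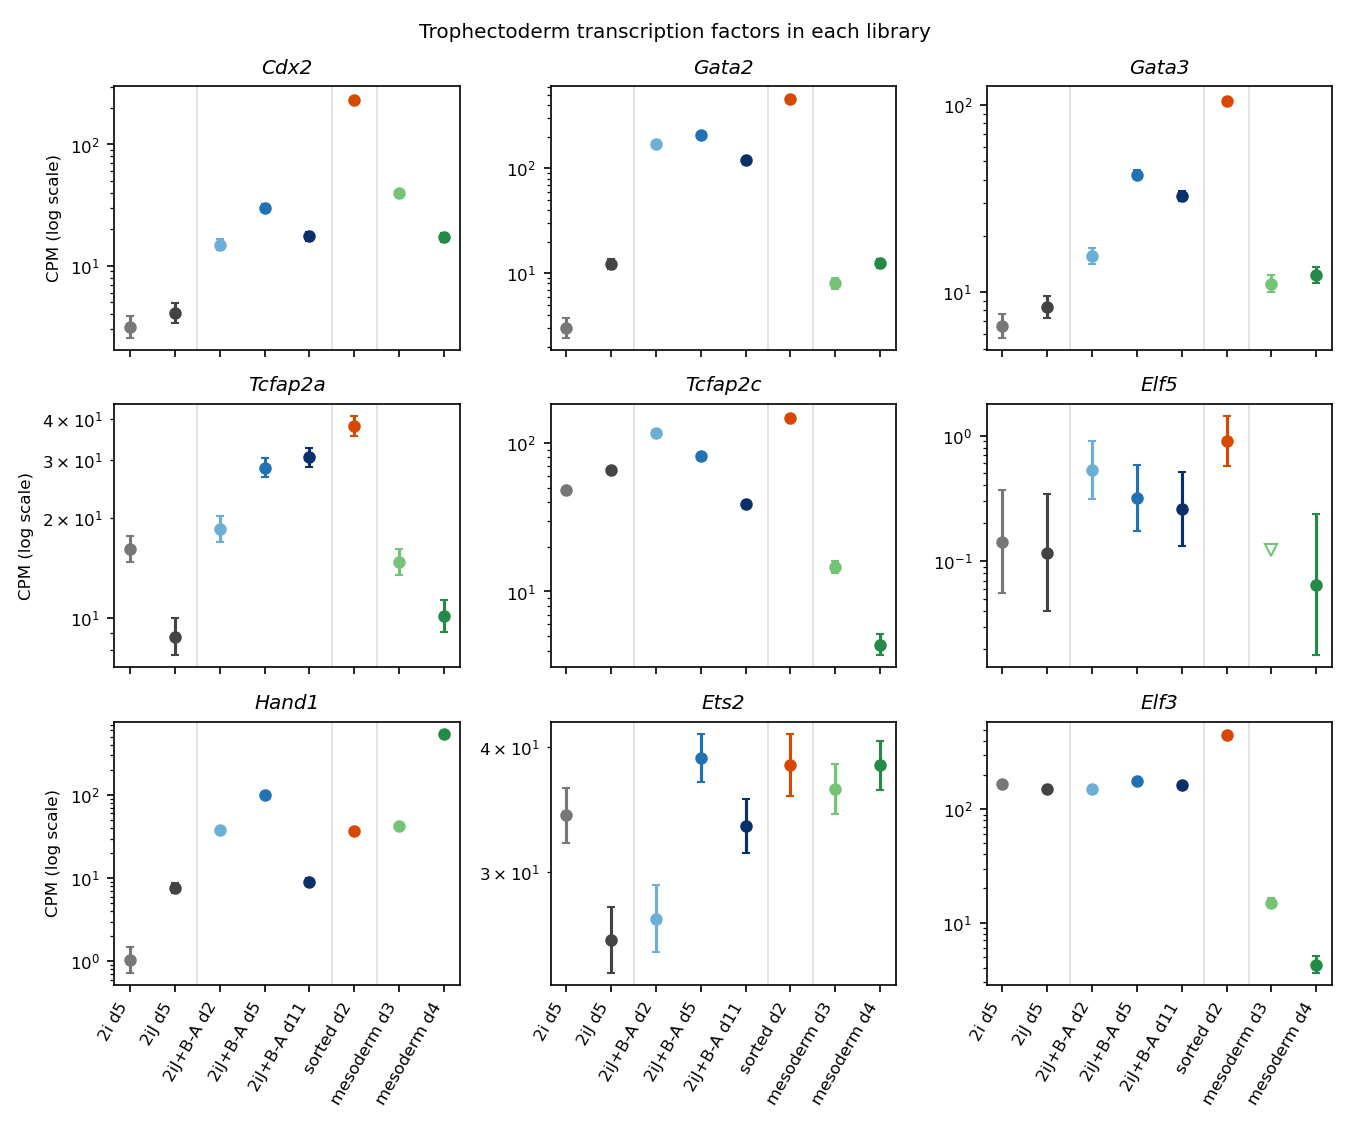
CPM of each gene on a log axis (y) in the 8 libraries (x, with the day as d). Points are single libraries and bars are 95% Wilson intervals, which cover counting error only. The triangle for Elf5 marks the upper bound where the count was 0. Cdx2, Gata2, Gata3, Tcfap2a, Tcfap2c, Elf3 and, at 18 counts, Elf5 peaked in the sorted cells. Hand1 peaked on day 4 of mesoderm, and Ets2 stayed between 25.7 and 39.0 CPM.

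CDX2, a caudal-type homeodomain factor, is needed to keep the TE from expressing pluripotency genes. Cdx2 (ENSMUSG00000029646) lies on the reverse strand of chr5:148112381-148118846 in NCBIM37. The 2i library held 3.16 CPM of Cdx2, with a 95% Wilson interval of 2.57 to 3.89, and the 2iJ library held 4.13 CPM (3.41 to 4.99). Cdx2 reached 15.0, 30.1 and 17.5 CPM on days 2, 5 and 11 of 2iJ+B-A, which is 20.9 ± 8.09 CPM (SD, n = 3). The sorted cells had 234.5 CPM (227.9 to 241.4), a value that the sort on a Cdx2 reporter fixes. Mesoderm progenitors expressed it at 40.2 CPM on day 3 and 17.3 CPM on day 4. Cdx2 thus separated 2iJ+B-A from 2i and 2iJ without overlap, but its levels in mesoderm overlapped with those of 2iJ+B-A.

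GATA2 and GATA3 are zinc-finger factors that activate trophoblast genes. Gata2 (ENSMUSG00000015053; forward strand, chr6:88143885-88157024) had 3.02 CPM in 2i (2.44 to 3.73) and 12.3 CPM in 2iJ (11.01 to 13.7). Its values of 172.1, 210.1 and 119.9 CPM on days 2, 5 and 11 of 2iJ+B-A (167.4 ± 45.3, SD, n = 3) were the highest CPM of the 9 genes on days 2 and 5. Gata2 had 459.7 CPM in the sorted cells (450.4 to 469.2) and only 8.01 and 12.4 CPM on days 3 and 4 of mesoderm. The lowest of the 2iJ+B-A values, 119.9 CPM, thus stood against 12.4 CPM as the highest of the 2i, 2iJ and mesoderm values. Gata3 (ENSMUSG00000015619; reverse strand, chr2:9778705-9811661) had 6.61 CPM in 2i and 8.37 CPM in 2iJ. It stood at 15.7, 42.5 and 32.6 CPM on days 2, 5 and 11 of 2iJ+B-A and at 104.5 CPM in the sorted cells (100.1 to 109.1). With 11.1 and 12.4 CPM in mesoderm, Gata3 was lower there than in every 2iJ+B-A library. The annotation overlaps Gata3 with 9230102O04Rik on the same strand, so some of its read pairs may be ambiguous.

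The AP-2 factors TFAP2A and TFAP2C, listed here under the older symbols Tcfap2a and Tcfap2c, bind GC-rich palindromes, and TFAP2C is needed for trophoblast. Tcfap2c (ENSMUSG00000028640; forward strand, chr2:172375093-172384122) was already at 47.9 CPM in 2i (45.4 to 50.5) and at 66.2 CPM in the 2iJ library (63.1 to 69.4). Under 2iJ+B-A it was at 117.2, 81.4 and 38.6 CPM on days 2, 5 and 11, so the day 11 value lay below both 2i and 2iJ. The sorted cells had 146.8 CPM (141.5 to 152.2), while the mesoderm values were 14.6 CPM for day 3 and 4.39 CPM for day 4. Tcfap2a (ENSMUSG00000021359; reverse strand, chr13:40811044-40829192) varied less. It had 16.2 CPM in 2i, 8.76 CPM in 2iJ, and 18.6, 28.5 and 30.6 CPM on days 2, 5 and 11 of 2iJ+B-A. It was at 38.1 CPM in the sorted cells (35.5 to 40.9) and at 14.8 and 10.1 CPM in mesoderm.

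ELF5, ETS2 and ELF3 share the ETS DNA-binding domain. ELF5 marks trophoblast stem cells and acts in a loop with CDX2 and EOMES, ETS2 supports the same cells, and ELF3 acts mainly in epithelia. Elf5 (ENSMUSG00000027186; forward strand, chr2:103251845-103291146) was near the detection limit throughout, where 3 counts correspond to between 0.0954 and 0.151 CPM. It had 4 counts in 2i, 3 in 2iJ, 13, 10 and 8 on days 2, 5 and 11 of 2iJ+B-A, 18 in the sorted cells, and 0 and 2 in mesoderm. The highest of these levels, in the sorted cells, was 0.909 CPM (0.575 to 1.44).

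Ets2 (ENSMUSG00000022895; forward strand, chr16:95923682-95942658) had the narrowest range of the 9 genes relative to its level. It had 34.2 CPM in 2i, 25.7 CPM in 2iJ, 26.9, 39.0 and 33.3 CPM on days 2, 5 and 11 of 2iJ+B-A, 38.4 CPM in the sorted cells, and 36.3 and 38.3 CPM in mesoderm. Elf3 (ENSMUSG00000003051; reverse strand, chr1:137150151-137155049) differed in another way. It was between 149.7 and 177.7 CPM in the 5 unsorted mESC libraries, at 168.5 CPM in 2i, 151.4 CPM in 2iJ, and 149.7, 177.7 and 164.3 CPM on days 2, 5 and 11 of 2iJ+B-A. The sorted cells had 456.5 CPM (447.2 to 466.0), and in mesoderm Elf3 was down to 14.9 CPM on the third day and 4.23 CPM on the fourth. The value of Elf3 under 2i alone thus lay within its range under 2iJ+B-A. A non-coding gene lies on the opposite strand, and without strand the mean of Elf3 in 2iJ+B-A was 131.9 CPM in place of 163.9 ± 14.0 (SD, n = 3).

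HAND1 is a basic helix-loop-helix factor of trophoblast giant cells and lateral mesoderm. Hand1 (ENSMUSG00000037335; reverse strand, chr11:57642207-57646320) had 1.03 CPM in 2i (0.717 to 1.48) and 7.67 CPM in the 2iJ library (6.67 to 8.82). Under 2iJ+B-A it stood at 37.5 CPM on day 2, 99.5 CPM on day 5 and 8.98 CPM on day 11. The sorted cells had 36.7 CPM (34.1 to 39.4), and the mesoderm values were 42.1 CPM for day 3 and 540.0 CPM for day 4. The single highest CPM of the 9 genes thus came from mesoderm, and the day 11 value of 2iJ+B-A was close to that of 2iJ.

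Levels of different genes were compared per kilobase of exon. On that scale Elf3 was the highest of the 9 in each mESC library, between 74.9 and 88.8 CPM per kilobase in the unsorted ones and 228.3 in the sorted cells. Tcfap2c was next in 2i and 2iJ, at 13.0 and 18.0 CPM per kilobase, and Gata2 was at 0.901 and 3.67 there. Gata2 was second in each 2iJ+B-A library, at 51.4, 62.7 and 35.8 CPM per kilobase, and in the sorted cells, at 137.2, where Cdx2 followed with 103.7. In both mesoderm libraries Hand1 was first, with 21.1 CPM per kilobase on day 3 and 270.4 on day 4, and Elf5 was last in all 8 libraries. Many neighbours within 2iJ+B-A were not separated beyond their spread. Cdx2, Gata3, Tcfap2a and Ets2 had means between 7.02 and 9.24 CPM per kilobase, and their order changed between days. Compared with all tested genes, the level of Gata2 per kilobase exceeded that of 30.4% of genes in 2i, 50.2% in 2iJ, between 89.2% and 94.0% in 2iJ+B-A and 97.7% in the sorted cells.

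RefSeq promoter windows were found for 7 of the 9 genes. Of each, the 250 bases before the start were matched exactly to NCBIM37, which gave 10 windows. The windows of Gata2, Elf3 and Cdx2 are shown because these genes, of those with a window, differed widely between the groups, Gata2 with both of its RefSeq starts. Each sequence is written from 5′ to 3′ on the strand of its gene, and capitals mark letters that match 1 of 7 motifs searched on both strands. Gata2 start 1 is chr6:88143635-88143884 and start 2 is chr6:88148408-88148657, both on the forward strand. The Elf3 window is chr1:137155050-137155299 and the Cdx2 window is chr5:148118826-148119075, both on the reverse strand, and 21 bases of the latter lie in an annotated exon.
Gata2 start 1: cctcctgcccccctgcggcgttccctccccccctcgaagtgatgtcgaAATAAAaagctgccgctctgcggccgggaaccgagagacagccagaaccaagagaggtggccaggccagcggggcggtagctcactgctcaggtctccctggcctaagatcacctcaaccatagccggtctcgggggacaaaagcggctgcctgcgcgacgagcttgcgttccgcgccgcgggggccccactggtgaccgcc
Gata2 start 2: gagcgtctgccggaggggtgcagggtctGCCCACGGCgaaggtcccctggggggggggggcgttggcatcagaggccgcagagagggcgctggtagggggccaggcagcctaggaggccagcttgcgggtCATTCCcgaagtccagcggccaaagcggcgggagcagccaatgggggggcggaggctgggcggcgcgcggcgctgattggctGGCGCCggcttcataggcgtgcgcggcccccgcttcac
Elf3: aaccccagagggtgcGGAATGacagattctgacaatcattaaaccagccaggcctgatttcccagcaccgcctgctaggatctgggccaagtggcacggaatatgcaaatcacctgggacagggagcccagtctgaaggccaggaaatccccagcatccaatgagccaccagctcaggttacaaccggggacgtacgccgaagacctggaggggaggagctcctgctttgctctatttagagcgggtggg
Cdx2: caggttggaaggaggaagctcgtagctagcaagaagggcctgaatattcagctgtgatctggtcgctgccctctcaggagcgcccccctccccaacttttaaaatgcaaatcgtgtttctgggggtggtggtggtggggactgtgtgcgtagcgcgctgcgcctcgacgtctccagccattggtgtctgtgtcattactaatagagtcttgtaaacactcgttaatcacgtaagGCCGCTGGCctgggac

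The motifs were AGATAA for GATA factors, GCCNNNGGC for AP-2, CCGGAA for ETS, GGAATG for TEAD, TTTATT for CDX, GGCGCC for SMAD and CTTTGA for TCF/LEF, where N is any base. In these windows no letter belonged to more than 1 match. The AP-2 letters were in the Cdx2 window, in that of Gata2 start 2 and in that of Gata3, 3 of the 10 windows, against 13.7% of 32851 RefSeq promoters. The TEAD letters were in 3 windows as well, those of Elf3, Gata2 start 2 and Elf5 start 1, against 12.6% of all. SMAD letters were in 2 windows, Gata2 start 2 and Gata3, against 9.59%. CDX letters were in 1 window, Gata2 start 1, against 18.1% of promoters. ETS letters were in the Gata3 window and TCF/LEF letters in that of Elf5 start 2, against 12.0% and 13.8%. The GATA letters were in 0 of the 10 windows and in 9.99% of all promoters. The windows of Gata3, Elf5 start 1 and Ets2 lie wholly in annotated exons, and that of Tcfap2a start 1 mostly does. The AP-2 and SMAD motifs are GC-rich, and the Gata2 start 2 and Gata3 windows had a higher GC share than the median promoter. Whether the matches exceed those in promoters of like GC share was not tested. All these matches describe the letters only, and gene counts do not show which start is used.

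The JAK inhibitor was examined by setting 2iJ beside 2i, with 1 library each and so without a replicate check. Hand1 was 7.44 times as high in 2iJ (exact 95% counting interval 5.02 to 11.4) and Gata2 4.07 times (3.20 to 5.24). These were the 2 of 9 genes at least 2-fold higher, beside 5.18% of all tested genes. No gene of the 9 was at least 2-fold lower, beside 2.69% of tested genes, and the lowest ratio was 0.542 (0.460 to 0.637) for Tcfap2a. Cdx2 had a ratio of 1.31, with an interval of 0.975 to 1.75 that includes equality. These intervals compare the libraries, not the conditions.

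The addition of BMP4 and the ALK5 inhibitor was examined between 2iJ+B-A and 2iJ. All 9 log2 fold changes were positive, with a median of 1.55 against 0.03 over all tested genes, but none passed. The edgeR quasi-likelihood test with Benjamini-Hochberg adjustment called 0 of the 9 genes, as it called 0.0% of all tested genes. Gata2 had the largest log2 fold change of the 9, 3.70 with a standard error of 0.467 (edgeR adjusted p = 0.244, unadjusted p = 0.000154). Its unadjusted p ranked at position 9 of 16961 genes. Hand1 followed with 2.59 and a standard error of 1.79 (edgeR adjusted p = 0.829).

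Cdx2 had a log2 fold change of 2.27 ± 0.639 (SE; edgeR adjusted p = 0.491), Gata3 of 1.78 ± 0.567 (0.538) and Tcfap2a of 1.499 ± 0.424 (0.491). Elf5 had 1.55 ± 1.16, Ets2 0.30 ± 0.274, Tcfap2c 0.20 ± 0.761 and Elf3 0.05 ± 0.566. Before adjustment 4 of the 9 genes, Gata2, Cdx2, Tcfap2a and Gata3, had an edgeR p under 0.05, beside 7.61% of tested genes. With the Wald test of DESeq2, Gata2 (adjusted p = 7.56e-15), Cdx2 (0.00956) and Tcfap2a (0.0435) passed as higher, 3 of the 8 of these genes that DESeq2 tested, beside 1.29% of its tested genes. With 2i and 2iJ pooled as the reference, Gata2 was the only one of the 9 that passed in edgeR (log2 fold change 4.39, adjusted p = 0.0396), while Elf3 turned to -0.04. Without the day 2 library, Tcfap2c turned from 0.20 to -0.22.

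For 6 of the 9 genes, Cdx2, Gata2, Gata3, Tcfap2a, Elf5 and Hand1, all 3 libraries of 2iJ+B-A lay above both 2i and 2iJ, as did 26.5% of tested genes. At the same day 5, Gata2 was 17.1 times as high in 2iJ+B-A as in 2iJ (exact interval 15.3 to 19.2), Hand1 13.0 times (11.2 to 15.1) and Cdx2 7.30 times (5.97 to 9.01). Gata3 and Tcfap2a were 5.08 and 3.26 times as high on that day. Primitive endoderm markers were higher as well. All 8 of them had positive log2 fold changes, with a median of 3.05 and 0 called, and their summed level was 34.4 CPM in 2iJ and 70.6, 131.1 and 699.7 CPM on days 2, 5 and 11 of 2iJ+B-A. None of the 8 was at 0 in these libraries. Their part in the levels of the TE factors was not tested.

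Within 2iJ+B-A the genes took separate courses with time. The slope on the log2 of the day was called by edgeR for 0 of the 9 genes, as for 0.0% of tested genes, and 0 of the 9 had an unadjusted p under 0.05, beside 5.92% of tested genes. DESeq2 called 115 genes and none of the 9. Tcfap2c came nearest, with -0.65 log2 units per doubling of time (SE 0.324, edgeR adjusted p = 0.858). It passed without the day 3 or the day 4 mesoderm library, in fits that leave 1 residual degree of freedom. A mesoderm library holds no day of 2iJ+B-A, so these fits add no measurement of the slope. On day 11 Tcfap2c was 0.330 times its day 2 level (exact interval 0.308 to 0.353).

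Between single libraries, Hand1 was 2.65 times as high on day 5 as on day 2 (2.46 to 2.86) and 0.0903 times as high on day 11 as on day 5 (0.0795 to 0.102). Its slope of -0.70 had a standard error of 1.23 and became 1.01 without day 11. Gata3 was 2.72 times as high on day 5 as on day 2 (2.42 to 3.05), and Cdx2 2.01 times (1.78 to 2.27). From day 5 to day 11 the ratios of Cdx2 and Gata2 were 0.583 and 0.571, while that of Tcfap2a was 1.07 (0.979 to 1.18). Slopes of Cdx2, Gata3, Ets2 and Elf3 turned from positive to negative without day 2, to -0.66, -0.31, -0.17 and -0.07.

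Sorted Cdx2-GFP-positive cells were compared with unsorted 2iJ+B-A to ask which of these factors accompany Cdx2. Line, sort, day and library quality differ together between these groups and cannot be told apart. Cdx2 was the only gene of the 9 that passed in edgeR (log2 fold change 3.54, SE 0.490, adjusted p = 0.0212), beside 3.34% of tested genes called higher. That checks the sort and is no finding, and it did not pass without any 1 of the 3 libraries of 2iJ+B-A (0.0693 to 0.0757). Of the other 8 genes, 7 had positive log2 fold changes. The 3 largest were those of Gata3 (1.85 ± 0.462, SE; edgeR adjusted p = 0.069), Elf3 (1.53 ± 0.525; 0.129) and Gata2 (1.51 ± 0.339; 0.056). Elf5 had 1.35, Tcfap2c 0.94, Tcfap2a 0.61, Ets2 0.27 and Hand1 -0.35.

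These calls depended on the fit. DESeq2, the fit without the filter and the fit of only the groups compared also called more genes in all than the main fit. Their totals are given with the results that depend on the processing. DESeq2 called Gata2, Gata3 and Elf3 higher (adjusted p = 0.00317, 0.00745 and 0.0489). Gata2 and Elf3 also passed in edgeR without the day 3 mesoderm library (0.0287 and 0.00811), without the day 4 mesoderm library (0.0276 and 0.00745) and with only the groups compared (0.0302 and 0.00794). Without the filter on low counts Gata2 and Gata3 passed (0.0324 and 0.0457). Compared at day 2 with a slope on day, 0 of the 9 passed, and Cdx2 had an adjusted p of 0.113.

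On the same day 2, the ratio of the sorted to the unsorted library was 15.6 for Cdx2 (exact interval 14.1 to 17.4), 6.68 for Gata3 (5.99 to 7.47) and 3.05 for Elf3 (2.93 to 3.17). Gata2 had a ratio of 2.67 (2.58 to 2.77) and Tcfap2a of 2.05 (1.82 to 2.31). Apart from Cdx2, which the sort fixes, 4 of the other 8 genes were thus at least 2-fold higher, beside 17.5% of tested genes, and 0 were at least 2-fold lower, beside 16.6%. Ets2 had 1.42, Tcfap2c 1.25 (1.19 to 1.32) and Elf5 1.72 (0.794 to 3.81). Hand1 was at the same level in both libraries within counting error, with a ratio of 0.976 (0.884 to 1.08). The plot of ratios between single libraries shows this beside the other pairs.

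**Figure D2:**
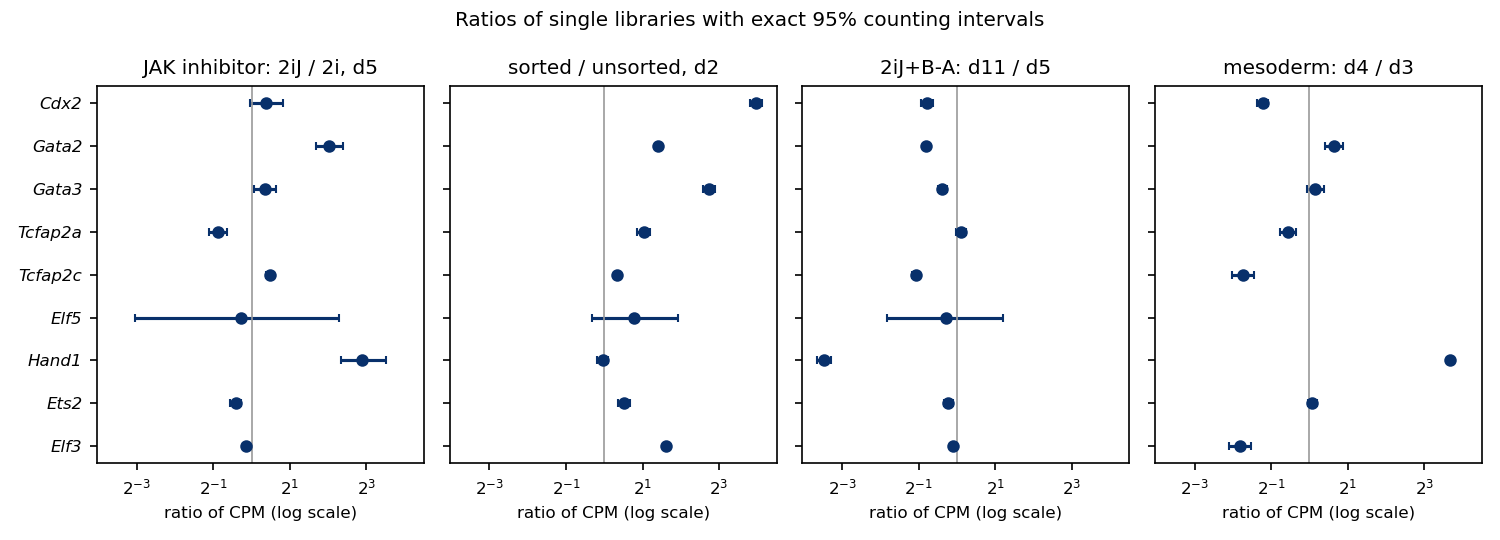
Ratios of CPM between single libraries (x, log scale) for the 9 genes (y), with exact 95% intervals that cover counting error only. Points right of the line at 1 were higher in the first-named library. Hand1 was higher in 2iJ and on day 4 of mesoderm, equal in sorted and unsorted cells within its interval, and 11.1-fold lower on day 11 than on day 5. Elf5 is left out of the last panel, where its counts were 2 and 0.

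Mesoderm progenitors were set against 2iJ+B-A to ask which of these factors differ between the 2 groups. The R1 line is shared here, but medium and culture form are not. Gata2, Elf3 and Tcfap2c fell, 3 of the 9 genes beside 15.5% of tested genes called lower, and 0 were called higher beside 11.5%. Gata2 was at 10.2 ± 3.13 CPM in mesoderm (SD, n = 2), a log2 fold change of -4.02 (SE 0.348, edgeR adjusted p = 0.00179). Elf3 was at 9.59 ± 7.57 CPM, a log2 fold change of -4.09 (SE 0.542, adjusted p = 0.00513). Both genes passed in each of the 12 alternative fits. Elf3 and Tcfap2c were not particular to 2iJ+B-A among the mESC cultures. In 2i and 2iJ, Elf3 was at 168.5 and 151.4 CPM, within its range of 149.7 to 177.7 CPM in 2iJ+B-A. Tcfap2c was at 47.9 and 66.2 CPM in 2i and 2iJ, within its range of 38.6 to 117.2 CPM in 2iJ+B-A.

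Tcfap2c had a log2 fold change of -3.06 (SE 0.682, edgeR adjusted p = 0.0218). It did not pass without day 2 or day 5 of 2iJ+B-A (0.0572 and 0.0628) or without day 4 of mesoderm (0.0517). Tcfap2a (-1.05, adjusted p = 0.0519), Gata3 (-1.34, 0.057) and Elf5 (-3.33, 0.0575) lay just above the threshold. Tcfap2a and Gata3 passed in DESeq2 (0.0121 and 0.0087), with unstranded counts (0.043 and 0.0498) and without day 2 of 2iJ+B-A (0.0443 and 0.019), and Gata3 also without the filter (0.0454). Elf5 passed without day 4 of mesoderm (0.0497), which left a library with 0 counts. Summed over libraries Elf5 had 31 counts in 2iJ+B-A and 2 in mesoderm, a ratio of 11.2 (exact interval 2.84 to 96.2).

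Hand1, Cdx2 and Ets2 had positive log2 fold changes in mesoderm of 2.62 (SE 1.18, edgeR adjusted p = 0.149), 0.47 (0.424, 0.448) and 0.19 (0.211, 0.544). The value of Hand1 depended on which mesoderm library was used. Without the day 3 library it was 3.56 and passed (adjusted p = 0.0401), and without the day 4 library it was -0.15. Cdx2 turned to -0.20 without the day 3 library. The median over the 9 genes was -1.34, against -0.03 over all tested genes.

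Between days 3 and 4 of mesoderm, 1 library each, Hand1 was 12.8 times as high on day 4 (exact interval 12.1 to 13.6), the 1 gene of the 9 at least 2-fold higher beside 9.47% of tested genes. Cdx2 (0.430), Tcfap2c (0.301) and Elf3 (0.283) were at least 2-fold lower, 3 of 9 beside 11.7% of tested genes. Gata2 had a ratio of 1.55 (1.32 to 1.83), Gata3 of 1.12 (0.962 to 1.29) and Ets2 of 1.06. Streak and posterior markers differed between these libraries too, with a summed level of 1322 CPM on day 3 and 55.5 CPM on day 4. Lateral and extraembryonic mesoderm markers summed to 181.8 CPM on day 3 and 935.3 CPM on day 4. Day and IWP-2 treatment differ together between these libraries and cannot be told apart. The part of cell composition in these ratios was not tested.

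The sorted cells and the mesoderm progenitors differed in most of these genes. Line, sort, medium, day and library quality differ together between these groups and cannot be told apart. Apart from Cdx2, 6 of the other 8 were higher in the sorted cells, beside 15.6% of tested genes called higher. Of these 8, 0 were lower, beside 2030 of 16961 tested genes called lower. Cdx2 was higher too (log2 fold change 3.07, edgeR adjusted p = 0.0116), but it is set apart because the cells were sorted on its reporter. Elf3 had 5.62 (SE 0.630, adjusted p = 0.00326), Gata2 5.53 (SE 0.404, 0.00131), Tcfap2c 3.99 (0.0154), Gata3 3.19 (0.00884) and Tcfap2a 1.65 (0.0261). Elf5 had 4.68 (0.03), which rests on 18 counts against 2 over both mesoderm libraries, a ratio of 28.4 (exact interval 6.79 to 252.0). Beside these 18 counts the sorted library held 13 Elf5 pairs on the opposite strand. Hand1 had -2.96 (0.268) and Ets2 0.08 (0.864).

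Of these, Tcfap2a did not pass without day 5 of 2iJ+B-A (0.0654) or day 4 of mesoderm (0.0599). Elf5 did not pass without day 5 of 2iJ+B-A (0.0672), without day 3 of mesoderm (0.0528) or in DESeq2 (0.0664). With only the groups compared, which leaves 1 residual degree of freedom, 0 genes in all passed at an adjusted p under 0.05, and 4157 had an unadjusted p under 0.05. The log2 fold changes of all 4 comparisons are shown side by side in the plot of fold changes. They share libraries and are not independent.

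**Figure D3:**
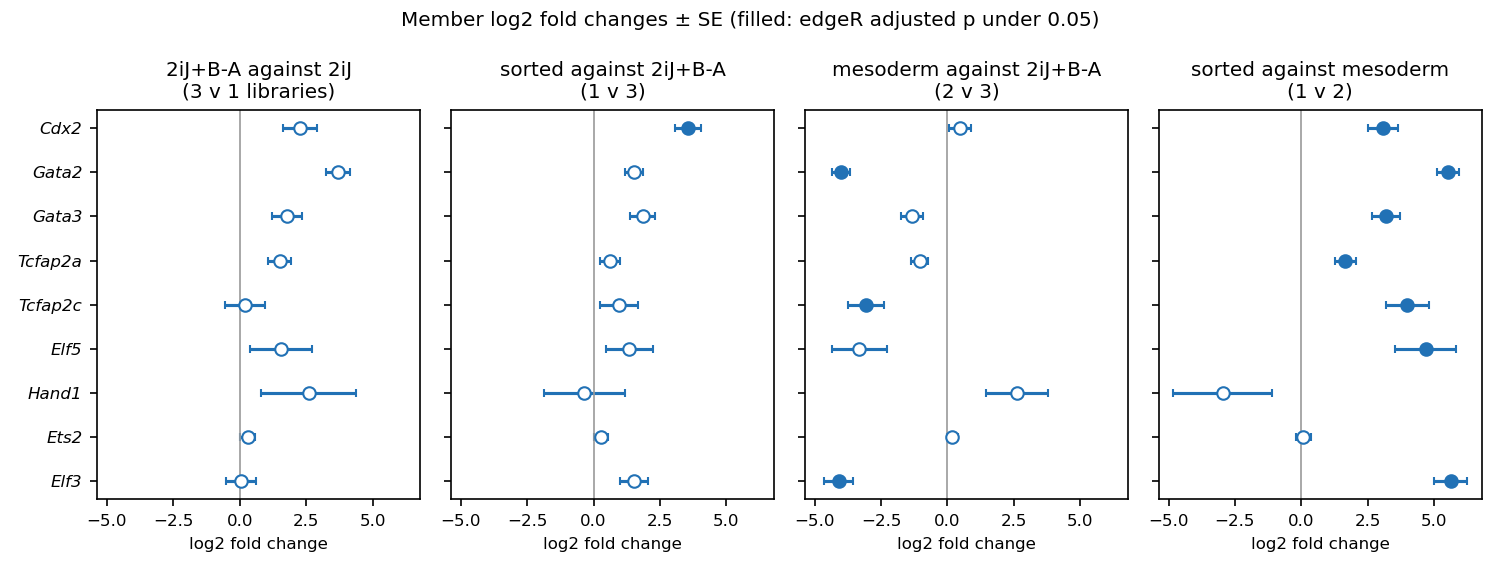
Log2 fold changes (x) of the 9 genes (y) in 4 comparisons of the joint edgeR fit, with SE bars. Filled points had an adjusted p under 0.05. Gata2 and Elf3 had the largest falls in mesoderm among the 9 genes, and Hand1 had the widest bars.

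Other genes of the TE programme were followed as lists. Of all 16961 tested genes, edgeR called 567 higher and 352 lower in the sorted cells against 2iJ+B-A. Against mesoderm it called 2648 higher and 2030 lower in the sorted cells. In mesoderm against 2iJ+B-A it called 1957 higher and 2627 lower. Calls in the sorted cells rest on 1 library, and single list genes were not followed in the alternative fits. Of 7 upstream regulators matched (Tead4, Yap1, Wwtr1, Klf5, Notch1, Rbpj and Fgfr2), 0 passed between 2iJ+B-A and 2iJ, with a median log2 fold change of 0.21. The 2 furthest from 0 were Klf5 (-1.06, adjusted p = 0.869) and Fgfr2 (-0.77, 0.867). In the sorted cells Tead4, the DNA-binding partner of YAP, rose to 87.6 CPM from between 9.86 and 16.2 CPM in 2iJ+B-A (log2 fold change 2.70, edgeR adjusted p = 0.0358), and the other 6 did not pass. In mesoderm against 2iJ+B-A, Notch1 rose (1.39, 0.0356) and Rbpj, the nuclear effector of Notch, fell (-1.45, 0.00927). Against mesoderm, Tead4 again was the 1 gene of the 7 that passed in the sorted cells (2.22, 0.028).

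Among 6 partners of trophoblast stem cells (among them Eomes, Esrrb, Sox21, Id2 and Sox2), 0 passed between 2iJ+B-A and 2iJ. Id2, a BMP target, had 13.0 CPM in 2iJ and 159.9, 97.5 and 103.6 CPM on days 2, 5 and 11 of 2iJ+B-A (log2 fold change 3.15, edgeR adjusted p = 0.488), and Sox21 had 2.10 (0.53). Eomes, which encodes a T-box factor of trophoblast stem cells and of the streak, was at 4.16, 4.04 and 2.57 CPM in 2iJ+B-A and 2.68 CPM in the sorted cells. It was at 392.5 CPM on day 3 of mesoderm. Sox2 and Esrrb fell in the sorted cells against 2iJ+B-A (-2.29, adjusted p = 0.0194, and -1.39, 0.0478), 2 of the 6, with 0 higher. In mesoderm against 2iJ+B-A, Eomes rose (5.85, 0.0129) and Esrrb, Sox2 and Sox21 fell (-5.75, -4.96 and -4.22). Against mesoderm, Sox21, Esrrb and Sox2 were higher in the sorted cells (6.02, 4.36 and 2.68) and Eomes was lower (-6.22, 0.049).

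The 14 genes of TE and trophoblast epithelium held 297.3 CPM in 2iJ, 816.0, 1721 and 941.8 CPM on days 2, 5 and 11 of 2iJ+B-A, and 5395 CPM in the sorted cells. Mesoderm held 1054 CPM on day 3, above days 2 and 11 of 2iJ+B-A, and 550.3 CPM on day 4. Between 2iJ+B-A and 2iJ, 12 of 14 log2 fold changes were positive, with a median of 1.65 and 0 called. The largest among genes reaching 10 CPM was that of the keratin Krt7 (5.67, edgeR adjusted p = 0.488). In the sorted cells against 2iJ+B-A, 3 of the 14 rose and 0 fell, with a median of 2.45. They were Dppa1 (8.03, adjusted p = 0.00543), the aminopeptidase gene Enpep (4.93, 0.0412) and the keratin Krt18 (2.59, 0.0484). Dppa1 stood at 174.0 CPM there, while the highest of the other 7 libraries had 0.978 CPM.

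Against mesoderm, 10 of the 14 epithelial genes were higher in the sorted cells, among them Dppa1 (adjusted p = 0.00149), which had 0 counts in both mesoderm libraries, the water channel Aqp3 (9.47, edgeR adjusted p = 0.00132), Krt7 (6.39, 0.0142) and Lgals3 (6.20, 0.00969). Dsp, which encodes desmoplakin, was lower (-1.93, 0.0401). In mesoderm against 2iJ+B-A, 6 of the 14 fell, led by Aqp3 (-7.72, 0.00163), Dppa1 (0.0107, from at most 0.978 CPM to 0 counts), Krt7 (-5.15, 0.019) and Lgals3 (-3.36, 0.0322). Cd40 and Dsp rose (3.97, 0.00603, and 3.28, 0.00328).

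Of 10 genes of differentiated trophoblast, 5 passed the filter on low counts, and the list's sum was carried by Peg10. Peg10, an imprinted retrotransposon-derived gene of the placenta, had 105.1 CPM in 2i, 196.9 CPM in 2iJ and 2447, 2935 and 1884 CPM on days 2, 5 and 11 of 2iJ+B-A, but also 2431 and 4343 CPM in mesoderm. Its log2 fold change between 2iJ+B-A and 2iJ was 3.56 (edgeR adjusted p = 0.244), and that of Plac1 was 4.83 (0.709). The giant cell hormones Prl3d1 and Prl3b1 and the labyrinth protease Ctsq had 0 counts in all 8 libraries, which allows up to 0.0954 to 0.151 CPM. Of the 5 tested, 0 passed between the sorted cells and 2iJ+B-A, and 2 were higher in the sorted cells than in mesoderm, Ascl2 (6.27, 0.00123) and the syncytiotrophoblast factor Gcm1 (6.23, 0.0111). In mesoderm against 2iJ+B-A, Gcm1, Syna and Ascl2 fell (-5.65, -5.21 and -5.14).

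**Figure D4:**
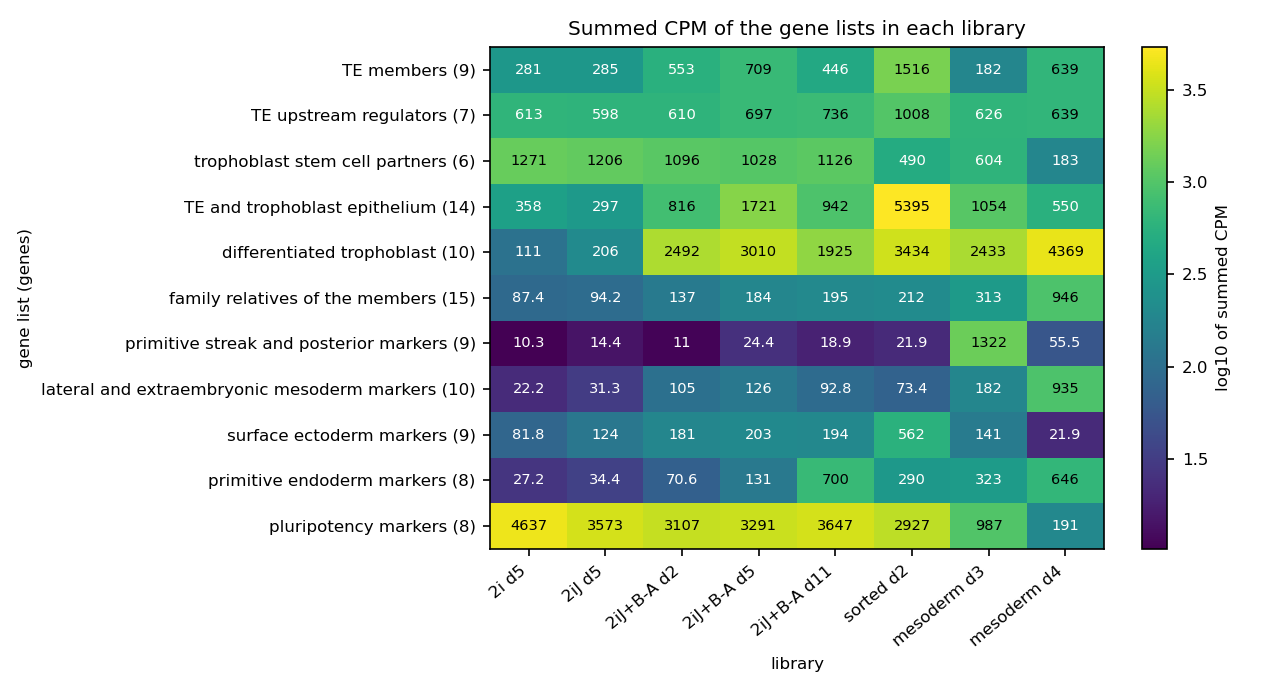
Summed CPM of each gene list (rows, with the number of genes matched) in the 8 libraries (columns), coloured by log10 of the sum. TE and trophoblast epithelium peaked in the sorted cells at 5395 CPM, and streak markers on day 3 of mesoderm at 1322 CPM.

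Markers of other cell types were read beside the TE factors in the sorted cells. Primitive endoderm markers summed to 289.6 CPM there, of which Dab2 had 211.8 CPM and Gata6 32.8 CPM, while Gata4, Sox17, Sox7 and Foxa2 were at 0.757, 1.16, 0.151 and 0.151 CPM. Of those 8 markers, 0 passed against 2iJ+B-A. Surface ectoderm markers summed to 562.2 CPM against 181.0 to 203.0 CPM in 2iJ+B-A, with 0 of 8 called and a median log2 fold change of 0.68. Epcam held 409.0 CPM of it. The defining keratin Krt5 was at 0 counts in the sorted cells and at most at 0.350 CPM elsewhere. Grhl2 (102.3 CPM), Grhl3 (32.9 CPM), Trp63 (2.27 CPM) and Krt14 (2.12 CPM) were each at their highest of the 8 libraries there. Grhl3 was nearly as high on day 5 of 2iJ+B-A, at 32.4 CPM. Dlx3, Dlx5 and Wnt6 went the other way, at 7.82, 0.606 and 5.15 CPM in the sorted cells. On day 5 of 2iJ+B-A they were at 14.7, 3.21 and 9.12 CPM. Lateral mesoderm markers summed to 73.4 CPM against 92.8 to 125.6 CPM, with 0 of 10 called. Of 9 streak markers 0 were called, and they summed to 21.9 CPM. The pluripotency markers summed to 2927 CPM, against 3107 to 3647 CPM in 2iJ+B-A, with 1 of 8, Sox2, lower.

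Relatives of the 9 factors in the same gene families formed a further list. Of 15 relatives, 13 could be tested. Between sorted and unsorted 2iJ+B-A 0 of them passed in edgeR, and between 2iJ+B-A and 2iJ 0 passed as well. Among those reaching 10 CPM, Gata4 (2.46, edgeR adjusted p = 0.8) and Gata6 (2.14, 0.774) were furthest from 0 in the latter comparison. Gata4 had 5.18, 15.6 and 72.8 CPM on days 2, 5 and 11 of 2iJ+B-A, 0.757 CPM in the sorted cells, and 96.6 and 225.8 CPM in mesoderm. It was lower in sorted cells than in mesoderm (-7.69, 0.0402), whereas Gata2 was higher there. Hand2, named after its values were seen, had 406.1 CPM on day 4 of mesoderm, where Hand1 also peaked, and 8.58 CPM in the next highest library. In mesoderm against 2iJ+B-A, Ets1 and Elf2 rose (2.77, 0.00517, and 0.71, 0.0348), and Cdx4 and Elf4 fell (-4.50, 0.0253, and -2.36, 0.0428). Against mesoderm, Elf4 was higher in sorted cells (2.73, 0.0453) and Ets1 lower (-3.96, 0.0078).

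The genes whose pattern over the 8 libraries was most like that of a factor were sought among 10766 protein-coding genes that reached at least 10 CPM in a library, by the root mean square difference in centred log2 CPM. For Elf3 these were Prkcc, at 0.209 log2 units, then Steap3 at 0.280 and Pcsk6 at 0.289, against a median of 2.16 over all candidates. For Cdx2 they were Lmna (0.454), Tchh (0.474) and Fam101b (0.506), against a median of 1.87. No candidate came that close to Gata2 or Hand1. The nearest to Gata2 were 3830417A13Rik (0.849), 2610528J11Rik (0.875) and Lims2 (0.880), and the nearest to Hand1 were Irx3 (0.980), Gm12824 (1.03) and Lsp1 (1.04). Within the set, Ets2 and Tcfap2a were nearest, 0.648 apart, but the median candidate was nearer to Ets2, at 0.457, and stood at 0.843 from Tcfap2a. Gata3 and Tcfap2a were 0.741 apart (median for Gata3 1.35) and Elf3 and Tcfap2c 0.771 (median for Tcfap2c 1.64), while Hand1 and Elf3 were furthest apart at 4.09. Likeness over 8 libraries is a description, since the libraries share lines, media and depth.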

How the data were processed

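The authors sequenced poly-A RNA as stranded libraries and deposited STAR read counts per gene, unnormalised. Per the submitters' processing notes, bcl2fastq 2.17, cutadapt and STAR 2.4.2a were used with NCBIM37. Each file holds unstranded, forward and reverse counts, and the reverse column was used, since it matched the library strand. Of 37620 gene IDs, 37205 were given symbols by GENCODE (NCBIM37). Summary lines that name no gene were left out of all totals.

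CPM was computed from gene totals of 19810855 to 31453888 counts, at which 3 counts, taken as the floor, are 0.0954 to 0.151 CPM. Wilson and exact intervals (95%) cover counting error only, because PCR reads without molecular identifiers are not independent molecules. Genes reaching 10 counts in 2 or more libraries entered a quasi-likelihood fit of 5 groups in edgeR 4.0.16 (R 4.3.3, TMM scaling, 3 residual degrees of freedom, biological coefficient of variation 0.363), with Benjamini-Hochberg adjustment over 16961 genes and a threshold of 0.05. The slope fit left 2 residual degrees of freedom. Groups of 1 library borrow their spread from the others. Alternatives were DESeq2 1.42.0, other scaling, filters, strands, references and samples and, added after seeing the data, protein-coding genes only.

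All 9 factors are named in each comparison. From each list, at most 4 genes per direction that passed are named by size of log2 fold change, or, where none passed, at most 2 reaching 10 CPM. Marker lists of other cell types are given as counts and sums. The members and lists were chosen with earlier results of these data known. Promoter sequences are from RefSeq and were placed by exact match to NCBIM37. Single values of some list genes are not reported here.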

Additional observations from a re-analysis of the deposited data

Results flagged for a closer look

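The sorted library held 13 read pairs on the strand opposite to Elf5, beside 18 on the strand of the gene. That is 41.9% of the pairs (95% Wilson interval 26.4 to 59.2), against 5.03% over all genes of that library. It stood out because the opposite-strand column is used in no comparison and the count lay above that of the control libraries, 0 in 2i and 1 in 2iJ. The low sense level of Elf5 in the sorted cells is thus close to the opposite-strand level there. Its source was not tested.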

How the results depend on the processing

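Between 2iJ+B-A and 2iJ, DESeq2 called 309 genes and 3 of the 9 factors, and pooling 2i with 2iJ gave 150 and 1, with Elf3 at -0.036. In mesoderm against 2iJ+B-A, DESeq2 called 5 factors among 5502 genes (3059 lower) and unstranded counts 5 among 4683 (2669 lower). In the sorted cells against 2iJ+B-A, where 919 genes and 1 factor passed, DESeq2 called 2665 and 4, no filter 1390 and 3, only the groups compared 1911 and 3, and the comparison at day 2 with a slope 27 and 0. Against mesoderm, only the groups compared gave 0 and 0 in place of 4678 and 7, with 1 residual degree of freedom, and no filter put Ets2 at -0.0183. For the slope, DESeq2 called 115 genes and no filter 2. Leaving out 1 library at a time gave 0 genes between 2iJ+B-A and 2iJ, and Tcfap2c ran from -0.22 to 0.52. For mesoderm against 2iJ+B-A (4584 genes, 3 factors), it gave 2019 to 4538 genes and 2 to 4 factors, with Cdx2 from -0.20 to 1.00 and Hand1 from -0.15 to 3.68. For sorted cells against 2iJ+B-A it gave 37 genes, without day 5, to 2052 and 0 to 3 factors, with Hand1 from -0.83 to 0.68. Against mesoderm it gave 2763 to 5085 genes and 5 to 7 factors, with Ets2 from -0.0182 to 0.0874. For the slope it gave 0 to 469 genes and 0 to 1 factors, with Cdx2 from -0.66 to 0.70, Gata2 from -0.68 to 0.16, Gata3 from -0.31 to 1.03, Ets2 from -0.17 to 0.34, Elf3 from -0.071 to 0.128 and Hand1 from -3.02 to 1.01. A slope fit without 1 library leaves 1 residual degree of freedom. The cause of these changes was not tested. Of the values of single genes, 497 kept direction and side of the threshold, 26 came to pass, 18 no longer passed, 13 turned sign and 1 moved, the mean of Elf3 with unstranded counts (131.9 CPM). With DESeq2 size factors, or with protein-coding genes only, no count of factors changed. No paired analysis was possible because the labels carry no replicate numbers, numbers follow accession order, and 3 of the 5 groups have 1 library. Depth limits Elf5, with at most 18 counts in a library.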

Other observations

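Markers of other cell types moved between 2iJ+B-A and mesoderm. Of all 16961 tested genes, 1957 were called higher in mesoderm and 2627 lower. Of 9 streak and posterior markers, 6 were higher in mesoderm and 1, Hoxb9, was lower (-5.25, edgeR adjusted p = 0.00292). Of 10 lateral and extraembryonic mesoderm markers 5 were higher and 0 lower, and of 8 primitive endoderm markers 1, Pdgfra, was higher (3.00, 0.0338). Of 8 pluripotency markers 6 were lower and 0 higher, and of 8 surface ectoderm markers tested 2 were lower, Trp63 (-3.80, 0.0256) and Dlx3 (-3.26, 0.0125).

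Between the sorted cells and mesoderm, 2648 of 16961 tested genes were called higher in the sorted cells and 2030 lower. Of the markers, 5 of the 8 for pluripotency and 4 of the 8 for surface ectoderm were higher in the sorted cells and 0 were lower. Of the streak markers 1 was higher and 3 lower, of the lateral mesoderm markers 0 and 3, and of the primitive endoderm markers 1 (Dab2, 3.74, edgeR adjusted p = 0.0192) and 2.

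Between 2iJ+B-A and 2iJ, edgeR called 0 markers of these lists, as it called 0 genes in all. The median log2 fold change was 1.96 for surface ectoderm, 0.96 for lateral mesoderm, -0.52 for the streak and -0.19 for pluripotency. Within 2iJ+B-A all 8 primitive endoderm markers had positive slopes on the log2 of the day, with a median of 1.503 and 0 called. The largest were those of Foxa2 (1.84, edgeR adjusted p = 0.837) and Sox17 (1.82, 0.827).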
